A study of Mus musculus with 178 samples.

Results

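The 9 genes described here were read in mouse whole blood and grouped as CD4, CD8 and naive T cell genes. They are Cd4, Cd8a, Cd8b1, Ccr7, Tcf7, Lef1, Il7r, S1pr1 and Klf2. They were taken by symbol from the count table, 9 of the 55450 genes listed there, with earlier results of these data known. All 9 passed the filter on low counts in every comparison. At Day 9, the first bleed during anti-PD-1 treatment, all 9 stood below their pre-treatment level in both response groups (edgeR). The fall was 0.26 to 0.71 on the log2 scale in responders and 0.30 to 0.70 in non-responders. Of all genes 14.2% and 27.5% were called lower. On log2(TPM + 1), which has no correction for library composition, limma called none of the 9 in responders and most of them in non-responders. By edgeR and DESeq2, on counts scaled for library composition, none was called between responders and non-responders on any of the 4 days. For edgeR the share of all genes called was 7.42%, 13.4%, 1.99% and 8.55%. A rank-sum test on TPM, which has no such correction, called all 9 lower in responders on Days 4 and 9. It called 84.7% and 89.3% of all genes lower on those days. Against the CD3 genes Lef1 and Tcf7 were called lower in responders on Day 9, where 0.942% of all genes were. With Cd3e alone as the reference they were not called. The ratio of Cd8a to Cd4 rose from Day 4 to Days 9 and 24 in both groups, though the rises were not called with Cd8b1 in place of Cd8a, and on Day 4 that ratio moved with the composition of the library.

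CD4 and CD8 are the co-receptors with which T cells read antigen presented by MHC class II and class I molecules, respectively, and Cd8a and Cd8b1 encode the chains of the CD8 dimer. A naive T cell circulates between blood and lymph nodes. CCR7 steers it into the node along CCL19 and CCL21, S1PR1 lets it leave again along a gradient of sphingosine-1-phosphate, and the transcription factor KLF2 keeps S1pr1 switched on. TCF-1, the product of Tcf7, and its relative LEF1 hold the naive and stem-like program, and the IL-7 receptor chain encoded by Il7r carries the survival signal. Activated effector T cells usually lower most of these genes.

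Whole blood was drawn from 45 C57BL/6J mice of both sexes that carried orthotopic 4MOSC1 tumors, a carcinogen-induced oral squamous cancer line, in the tongue or buccal mucosa. Each mouse was given anti-PD-1 (clone RMP1-14) and was bled on Day 4, before treatment, and on Days 9, 17 and 24, during treatment. Days are counted from the implantation of the tumor cells. The tumor response divided the mice into 15 responders and 30 non-responders. Every mouse in both groups bore a tumor and received the antibody, so the course over the days has no untreated or tumor-free group to stand beside it. Responders gave 15, 15, 14 and 15 libraries on the 4 days and non-responders 29, 30, 30 and 30, in all 178. The Day 17 library of non-responder mouse 24 is labelled responder, unlike the other libraries of that mouse, and was counted with its mouse. Response was uneven over the ear tag series: 11 of the 18 mice with 4-digit tags responded, and 4 of the 27 with 3-digit tags.

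Libraries held 26058958 to 82208665 counts (median 51971365), of which haemoglobin transcripts took 68.7% to 88.0%. What remained, 4536692 to 22177360 counts, set the precision. The median haemoglobin share was 83.8% in responders and 79.4% in non-responders on Day 4, and 80.9% and 81.4% on Day 24. On Day 4 the median TMM factor, the scaling factor by which edgeR corrects for library composition, was 0.786 and 1.25. The Day 24 library of non-responder mouse 29 stood apart with a factor of 0.0848. None of the marker genes tested for T cells, B cells, NK cells, monocytes, neutrophils, platelets or red cells was at 0 in over 50% of libraries. The same held for dendritic cells, for which 5 of 6 markers were tested. Detection of this kind does not tell blood from other tissues that hold blood. Levels are given as log2 CPM, counts scaled to a library total corrected by the TMM factor, except where TPM is named.

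All 9 genes are protein coding, and their positions are those of GRCm38. On chromosome 6, Cd8b1 (ENSMUSG00000053044.8) spans 71322788 to 71337494 and Cd8a (ENSMUSG00000053977.13) spans 71373427 to 71379173, both on the plus strand and 35932 bases apart, while Cd4 (ENSMUSG00000023274.14) lies at 124864692 to 124888221 on the minus strand. Chromosome 11 holds Tcf7 (ENSMUSG00000000782.15) at 52252371 to 52283014 and Ccr7 (ENSMUSG00000037944.8) at 99144196 to 99155077, both on the minus strand. Chromosome 3 holds S1pr1 (ENSMUSG00000045092.8) at 115710433 to 115715072 on the minus strand and Lef1 (ENSMUSG00000027985.14) at 131110471 to 131224356 on the plus strand. Il7r (ENSMUSG00000003882.5) lies on chromosome 15 at 9505788 to 9530176 on the minus strand, and Klf2 (ENSMUSG00000055148.7) on chromosome 8 at 72319033 to 72321656 on the plus strand.

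RefSeq promoter windows of GRCm38.p6, from 250 bases before a start site to 50 after it, were at hand for 5 of the 9 genes. Those of Tcf7 and Lef1 are shown because these were the 2 genes whose levels moved most closely together, and that of Cd8a because it is the numerator of the ratio. Capitals mark matches, on either strand, to CACCCC (a KLF motif), CTTTGA (TCF and LEF), GTAAACA (FOXO) or GGAAG (ETS). The windows are chr11:52282965-52283264 (minus strand), chr3:131110073-131110372 (plus strand) and chr6:71373177-71373476 (plus strand).
Tcf7: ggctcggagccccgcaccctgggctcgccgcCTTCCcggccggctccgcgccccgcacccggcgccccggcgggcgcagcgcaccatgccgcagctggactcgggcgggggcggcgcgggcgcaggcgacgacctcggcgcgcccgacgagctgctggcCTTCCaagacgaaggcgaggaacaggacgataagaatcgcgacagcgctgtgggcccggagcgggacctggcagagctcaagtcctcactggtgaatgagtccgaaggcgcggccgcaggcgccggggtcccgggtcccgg
Lef1: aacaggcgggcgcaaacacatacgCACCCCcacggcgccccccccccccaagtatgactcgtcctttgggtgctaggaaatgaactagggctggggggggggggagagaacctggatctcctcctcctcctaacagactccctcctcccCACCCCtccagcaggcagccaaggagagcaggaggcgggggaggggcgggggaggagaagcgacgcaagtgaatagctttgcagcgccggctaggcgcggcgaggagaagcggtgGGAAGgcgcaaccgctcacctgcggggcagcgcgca
Cd8a: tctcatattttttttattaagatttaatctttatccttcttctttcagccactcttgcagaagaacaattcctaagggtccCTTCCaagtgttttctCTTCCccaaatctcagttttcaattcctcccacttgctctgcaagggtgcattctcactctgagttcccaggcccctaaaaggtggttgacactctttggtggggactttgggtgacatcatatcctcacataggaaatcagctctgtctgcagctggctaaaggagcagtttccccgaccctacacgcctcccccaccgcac
The Tcf7 window is 76.3% G and C with 45 CpG pairs and the Lef1 window 67.3% with 21. The Cd8a window has 46.7% and 3, against a median of 52.7% over all 32851 windows. The Tcf7 window also holds an unbroken reading frame that opens at atgccgcag and runs to the end of the window. Its letters, the later marked CTTCC among them, are therefore not those of a promoter alone. The letters GGAAG occur 2 times in the Tcf7 window, once in the Lef1 window and 2 times in the Cd8a window, and at least once in 71.4% of all windows. CACCCC occurs 2 times in the Lef1 window and in 26.1% of all windows. No CTTTGA (16.0% of all windows) and no GTAAACA (3.65%) was found in the 5 windows. A match is a description of the letters and not of binding.

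Per transcript length, Klf2 was the most abundant of the 9, with a median of 12.0 TPM (transcripts scaled to a fixed total per library), and exceeded Tcf7 (8.68 TPM) in 178 of 178 libraries. Ccr7 followed at 7.74 TPM and was below Tcf7 in 135 libraries. S1pr1 (5.78 TPM) was under Ccr7 in 177 libraries and over Cd8b1 (3.99 TPM) in 169. Cd8b1 and Il7r (3.87 TPM) were close, with Cd8b1 higher in 108 libraries. Il7r in turn was above Lef1 (3.36 TPM) in 125, and Lef1 above Cd4 (2.06 TPM) in 171. Cd4 and Cd8a shared a median of 2.06 TPM, and Cd4 was the higher in 86 of 178 libraries, so these 2 could not be ordered. The raw counts behind these levels ran from 41 to 2429 for Cd4 and from 117 to 7911 for Klf2. The lowest count of each of these 2 genes came from the haemoglobin-rich Day 24 library of mouse 29.

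**Figure D1:**
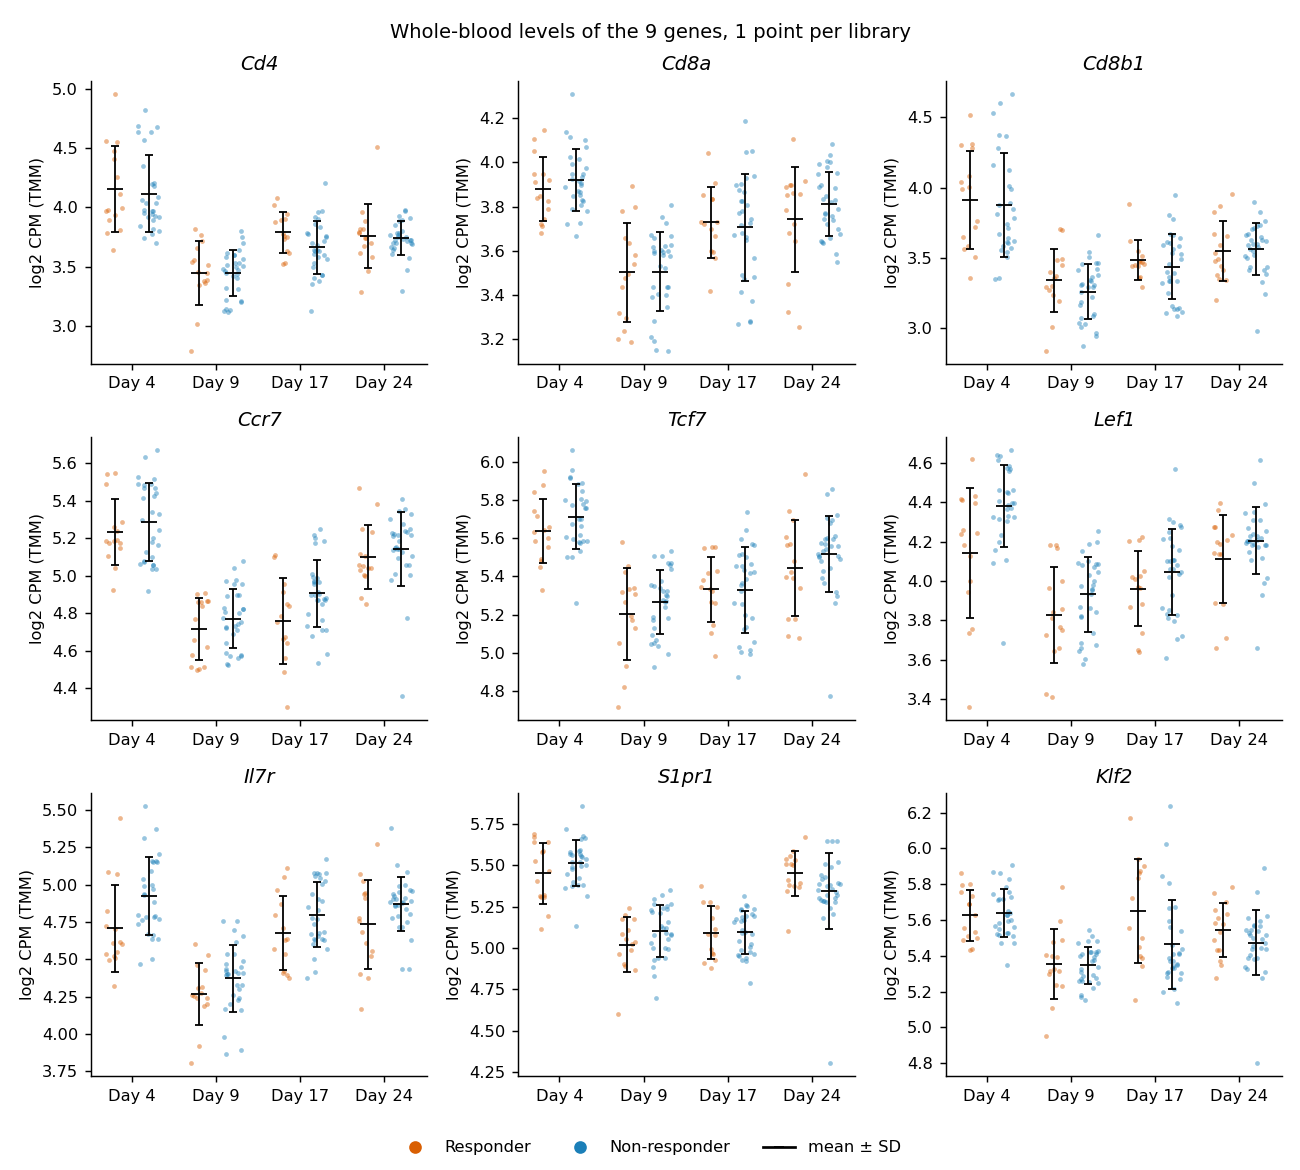
TMM-scaled log2 CPM of each gene in each of the 178 libraries (points) by day, responders in orange and non-responders in blue; bars give the mean and 1 SD. Each panel has its own axis. Group means are lowest on Day 9, except for S1pr1 in non-responders (5.09 on Day 17 and 5.10 on Day 9), and the 2 response groups overlap on every day.

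The first comparison asked whether responders differed from non-responders on any day. None of the 9 genes was called on Day 4, 9, 17 or 24 by the quasi-likelihood test of edgeR, with p values adjusted over all genes (Benjamini-Hochberg), against a background of 7.42%, 13.4%, 1.99% and 8.55% of all genes called. At an unadjusted p under 0.05 the counts were 2, 0, 2 and 0. DESeq2 called 0 on each day, against 8.83%, 13.2%, 4.56% and 16.6% of all genes. Log2 fold changes of the 9 genes spanned -0.21 to 0.06 before treatment, then -0.11 to 0.08 (Day 9), -0.14 to 0.19 (Day 17) and -0.12 to 0.10 (Day 24), with standard errors (SE) of 0.05 to 0.12.

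Lef1 came nearest to a call. On Day 4, before treatment, it had a lowest, median and highest level of 3.36, 4.24 and 4.62 log2 CPM in responders and 3.68, 4.39 and 4.67 in non-responders. Of the 15 responders 14 lay inside the range of the non-responders. The difference was -0.21 (SE 0.08, adjusted p = 0.0952, edgeR). Il7r showed a difference of the same size on that day, -0.21 (SE 0.09, adjusted p = 0.161, edgeR), from levels of 4.32, 4.61 and 5.44 in responders and 4.47, 4.93 and 5.53 in non-responders. Within the 3-digit ear tags the differences were -0.19 (SE 0.13) for Lef1 and -0.24 (SE 0.15) for Il7r, and within the 4-digit tags -0.13 (SE 0.12) and -0.09 (SE 0.13), none of them called. The call on Lef1 depended on single mice: without non-responder mouse 18 its adjusted p was 0.0394 and without responder mouse 3 it was 0.0334, and Il7r reached 0.0280 without responder mouse 13 (edgeR). Without the 30 libraries whose TMM factor was under 0.7 the Day 4 differences were smaller. They were -0.13 for Lef1 (adjusted p = 0.478, edgeR) and -0.14 for Il7r (adjusted p = 0.627, edgeR).

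On Day 17 the lowest p values belonged to Ccr7 and Klf2, in opposite directions. Ccr7 was at 4.30, 4.77 and 5.11 log2 CPM (lowest, median, highest) in responders and 4.54, 4.90 and 5.25 in non-responders, a difference of -0.14 (SE 0.06, adjusted p = 0.194, edgeR). Klf2 was at 5.16, 5.64 and 6.17 against 5.14, 5.38 and 6.24, a difference of 0.19 (SE 0.09, adjusted p = 0.205, edgeR). Neither passed, and 12 of 14 responders for Ccr7 and 14 of 14 for Klf2 lay inside the range of the non-responders. Within the 3-digit and 4-digit ear tags the Ccr7 differences were smaller, -0.01 (SE 0.08) and -0.06 (SE 0.09). Those of Klf2 were 0.38 (SE 0.14) and 0.16 (SE 0.12), and none of these was called (edgeR). For the lineage genes themselves the differences over the 4 days were at most 0.12 in size for Cd4, 0.06 for Cd8a and 0.08 for Cd8b1. Without the 30 libraries whose TMM factor was under 0.7 (low-factor libraries), a setting chosen after seeing the data, they were -0.16 for Cd4 (adjusted p = 0.502, edgeR) and -0.13 for Cd8b1 (adjusted p = 0.706, edgeR) on Day 4 and 0.14 for Cd8b1 on Day 9 (adjusted p = 0.325, edgeR).

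Changing the scale and the test together gave other counts. On TPM, which has no correction for composition, a rank-sum permutation test called all 9 genes lower in responders on Day 4 (adjusted p = 0.0122 to 0.0132) and on Day 9 (adjusted p = 0.000520 to 0.00270), and none on Day 17 or Day 24. Median Cd8b1 on Day 4 was 3.35 TPM in responders and 6.50 TPM in non-responders, and median Ccr7 6.33 and 12.0 TPM. The same test called 84.7% of all genes lower on Day 4 and 89.3% on Day 9. The log2 ratio of the median TPM over all genes was -0.74 on Day 4 and -0.74 on Day 9, and those of the 9 genes lay around it, from -0.96 (Cd8b1) to -0.59 (Cd8a) on Day 4 and from -0.92 (Ccr7) to -0.63 (Cd4) on Day 9. The 9 genes thus shifted on TPM about as far as the median gene did. The haemoglobin share of the responder libraries was the higher on both days, with medians of 83.8% against 79.4% on Day 4 and 83.1% against 78.5% on Day 9, and its part in the shift was not tested.

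**Figure D2:**
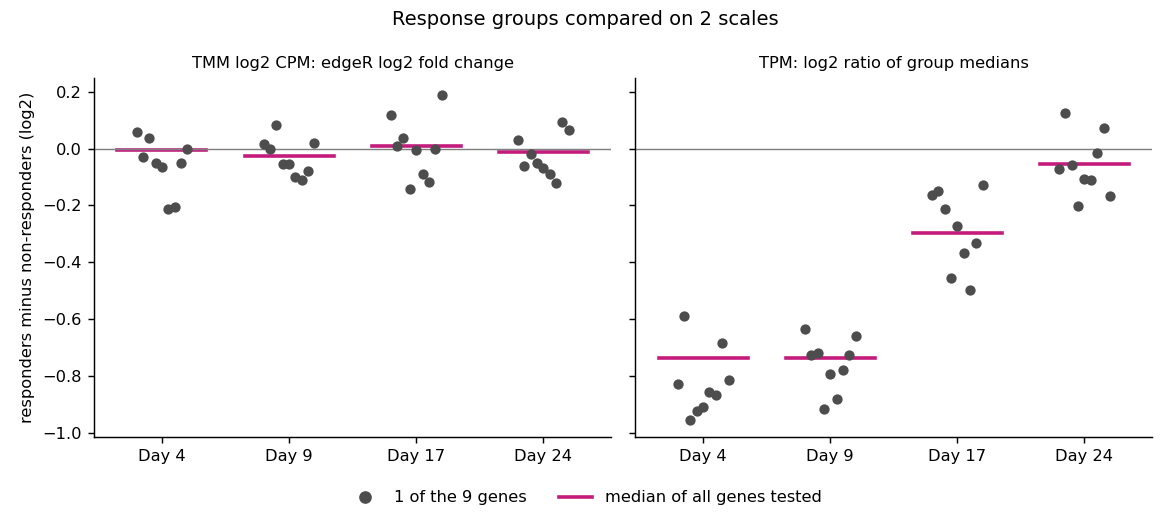
Difference between responders and non-responders for each of the 9 genes (points) by day, on TMM-scaled log2 CPM (left, edgeR) and on TPM (right, log2 ratio of group medians); the line is the median of all genes tested. On the left the points lie between -0.21 and 0.19, and on the right they follow the line from -0.74 on Day 4 to -0.05 on Day 24.

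The second comparison asked how the genes moved from the pre-treatment bleed to the first bleed on treatment. From Day 4 to Day 9 all 9 fell in responders and all 9 in non-responders, where 14.2% and 27.5% of all genes fell (edgeR). The all-gene median change was 0.01 and -0.01. On log2(TPM + 1), which has no correction for composition, limma called 0 of the 9 in responders (background 0.12%), with changes of -0.20 to -0.40, and 8 of the 9 in non-responders (background 9.15%). In whole blood, fewer T cells, less of a transcript per T cell and less of it from other blood cells cannot be told apart.

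The co-receptor genes fell in both groups. Cd4 had a lowest, median and highest level of 3.64, 3.99 and 4.96 log2 CPM in responders on Day 4 and of 2.79, 3.46 and 3.81 on Day 9, and fell in 14 of 15 mice. The fitted change was -0.71 (SE 0.10, adjusted p = 8.81e-07, edgeR). In non-responders Cd4 went from 3.70, 3.98 and 4.83 to 3.12, 3.47 and 3.80 and fell in 29 of 29 mice, by -0.70 (SE 0.06, adjusted p = 1.09e-18, edgeR). Before and on treatment the ranges overlapped only slightly. Cd8b1 changed by -0.58 (SE 0.09) in responders and -0.65 (SE 0.07) in non-responders, and Cd8a by less, -0.36 (SE 0.07) and -0.41 (SE 0.05). Cd4 and Cd8b1 spread more widely than Cd8a on Day 4, with an SD of 0.37 and 0.35 against 0.14 in responders. Without the 30 low-factor libraries the responder changes were -0.42 for Cd4, -0.29 for Cd8b1 and -0.36 for Cd8a, with -0.49 for Il7r and -0.45 for Ccr7, and 8 of the 9 genes were called (background 6.23%).

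Genes of homing and egress fell together with them. Ccr7 went from 4.92, 5.19 and 5.55 log2 CPM on Day 4 to 4.50, 4.77 and 4.91 on Day 9 in responders, so that no Day 9 value reached the lowest value of Day 4, and it fell in 15 of 15 mice. Its change was -0.51 (SE 0.07, adjusted p = 4.47e-07, edgeR) in responders and -0.52 (SE 0.05) in non-responders, where it fell in 29 of 29. S1pr1 changed by -0.42 (SE 0.06) and -0.41 (SE 0.04). Klf2, the factor that keeps S1pr1 on, fell least of the 9, by -0.26 (SE 0.08, adjusted p = 0.00832, edgeR) and -0.30 (SE 0.05). It fell in 13 of 15 and 29 of 29 mice. Without the low-factor libraries Klf2 in responders changed by -0.17 and was no longer called (adjusted p = 0.184, edgeR).

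The transcription factors of the naive program and the IL-7 receptor followed. Tcf7 fell by -0.42 (SE 0.08) in responders, in 15 of 15 mice, and by -0.45 (SE 0.05) in non-responders, in 28 of 29. Lef1 fell by -0.32 (SE 0.09, adjusted p = 0.00438, edgeR) and -0.45 (SE 0.05), in 13 of 15 and 28 of 29 mice. Il7r went from 4.32, 4.61 and 5.44 to 3.80, 4.26 and 4.60 log2 CPM in responders, a change of -0.45 (SE 0.10) seen in 15 of 15 mice, and changed by -0.56 (SE 0.06) in 29 of 29 non-responders. Leaving out any 1 mouse left all 9 genes called in both groups.

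**Figure D3:**
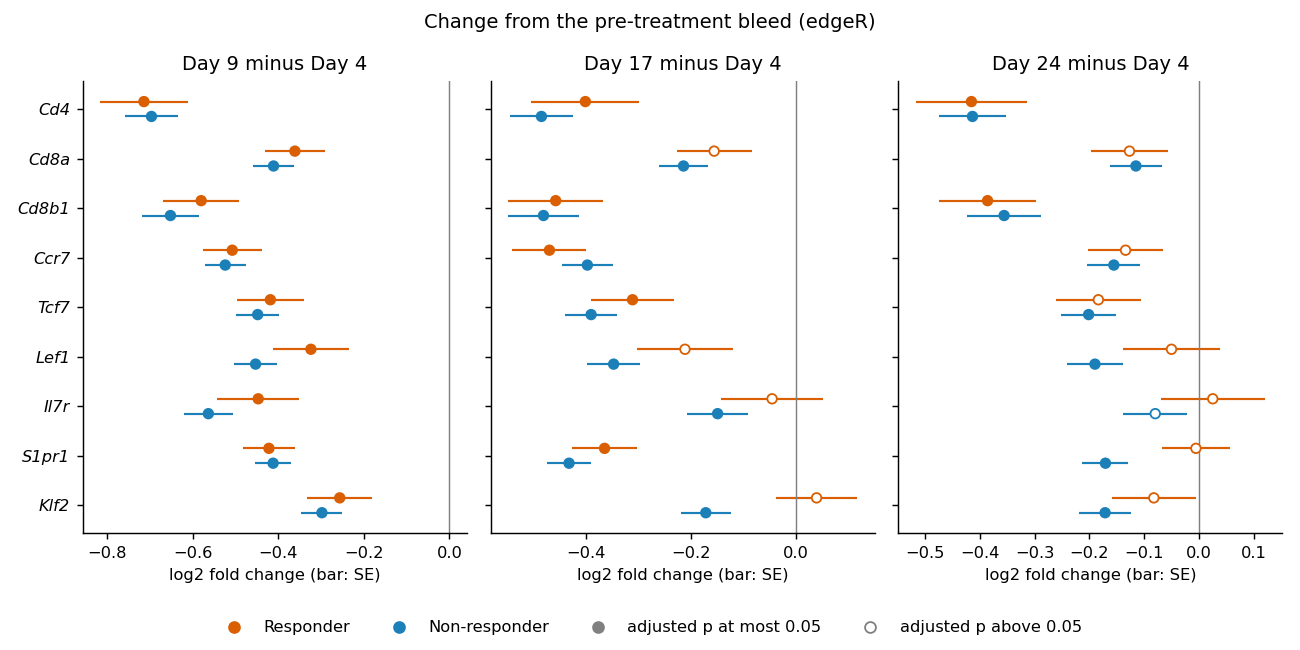
Fitted log2 fold change from Day 4 (edgeR, bars 1 SE) for each gene on Days 9, 17 and 24, in responders (orange) and non-responders (blue); filled points have an adjusted p of at most 0.05. All 18 points of the Day 9 panel are filled and below 0, and by Day 24 Cd4 and Cd8b1 alone remain filled in responders.

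On Day 17, 5 of 9 were still below Day 4 in responders (background 13.4% of genes lower) and 9 of 9 in non-responders (24.2%). In non-responders the call on Il7r (-0.15, SE 0.06, adjusted p = 0.0275, edgeR) was lost without any 1 of 9 mice. The responder genes were Ccr7 (-0.47, SE 0.07), Cd8b1 (-0.46, SE 0.09), Cd4 (-0.40, SE 0.10), S1pr1 (-0.37, SE 0.06) and Tcf7 (-0.31, SE 0.08). With each mouse as its own block Cd8a (-0.16, adjusted p = 0.0306, edgeR) and Lef1 (-0.21, adjusted p = 0.0257, edgeR) were called too. Without the low-factor libraries the calls on Cd4 (-0.22, adjusted p = 0.0781, edgeR) and Cd8b1 (-0.24, adjusted p = 0.105, edgeR) were lost and Lef1 was called (-0.35, adjusted p = 0.0197, edgeR). On log2(TPM + 1) limma called 0 of the 9 lower in responders on Day 17 and on Day 24 (background 0.0239% and 0.00797%). Il7r and Klf2 in responders were back at about the Day 4 level on Day 17, with changes of -0.05 (SE 0.10) and 0.04 (SE 0.08). Without the low-factor libraries these changes were -0.15 and 0.12, neither called (adjusted p = 0.489 and 0.493, edgeR). On Day 24, 2 of 9 were below Day 4 in responders (background 9.94%), Cd4 (-0.42, SE 0.10) and Cd8b1 (-0.39, SE 0.09), and 8 of 9 in non-responders (24.8%), all but Il7r (-0.08, SE 0.06, adjusted p = 0.254, edgeR). With mice as blocks Tcf7 in responders was also called on Day 24 (-0.19, adjusted p = 0.0144, edgeR). Without the low-factor libraries 0 of the 9 were called in responders on Day 24 (background 0.482%), where Cd4 stood at -0.15 and Cd8b1 at -0.14. Ccr7 was lower on Day 24 than on Day 4 in 15 of 15 responders, yet its fitted change of -0.13 (SE 0.07, adjusted p = 0.167, edgeR) did not pass. In non-responders the Day 24 call on Cd8a (-0.12, SE 0.05, adjusted p = 0.0357, edgeR) was lost without any 1 of 16 mice. Without the low-factor libraries the calls on Cd8a (-0.09, adjusted p = 0.135, edgeR) and Ccr7 (-0.11, adjusted p = 0.0551, edgeR) were lost there, and 6 genes were called (background 24.1%).

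From Day 9 to Day 17 Il7r rose by 0.40 (SE 0.10, adjusted p = 0.00718, edgeR) in responders, in 14 of 14 mice, and by 0.41 (SE 0.06, adjusted p = 4.89e-09, edgeR) in non-responders, in 28 of 30. Klf2 rose in that interval by 0.30 (SE 0.08) in responders, and these 2 were the responder genes called (background 1.85% higher). With mice as blocks Cd4 (0.31, adjusted p = 0.0315, edgeR) and Cd8a (0.20, adjusted p = 0.0236, edgeR) were called too. The call on Klf2 was lost without responder mouse 1 or responder mouse 2, and without the latter the count was 1. Without the low-factor libraries the responder count was 0 (background 1.27%), with Il7r at 0.34 and Klf2 at 0.30. Non-responders had 6 genes called higher (background 10.3%), Cd4, Cd8a, Cd8b1, Ccr7, Il7r and Klf2. Of these Ccr7 lost its call without any 1 of 15 mice, Cd8b1 of 22 and Klf2 of 14. On log2(TPM + 1) limma called 0 of the 9 higher in this interval in responders (background 0.0876%) and in non-responders (background 0.177%), and in non-responders the values of these genes other than Il7r turned to -0.09 to -0.22, where 41.1% of all genes were lower.

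Ccr7 and S1pr1, the entry and exit receptors, rose in both groups from Day 17 to Day 24. S1pr1 rose by 0.36 (SE 0.06, adjusted p = 2.93e-05, edgeR) in responders, in 14 of 14 mice, after a change of 0.06 (SE 0.06) in the interval before. In non-responders S1pr1 rose by 0.26 (SE 0.04, adjusted p = 2.08e-06, edgeR), in 29 of 30 mice, after -0.02 (SE 0.04). Ccr7 rose by 0.34 (SE 0.07) and 0.24 (SE 0.05). These 2 were the responder genes called (background 9.59% higher), and in non-responders Tcf7 and Lef1 were called as well (background 9.86%). Lef1 was called in responders too without the low-factor libraries (0.26, adjusted p = 0.0398, edgeR; 3 genes, background 7.13%), and Cd8a and Cd8b1 in non-responders (6 genes, background 12.1%). On log2(TPM + 1) limma called 0 of the 9 in either group (background 0.0797% and 0.292% higher).

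Whether the course differed between the response groups was tested as the difference of their changes from Day 4. None of the 9 genes was called on Day 9, 17 or 24 (edgeR), where 0, 48 and 515 of 13688 genes were, a background of 0%, 0.351% and 3.76%. At an unadjusted p under 0.05 the counts were 0, 1 and 1, and DESeq2 called 0 on each day (background 0%, 0.65% and 6.39%). Day 9 differences ran from -0.03 (SE 0.11) for Cd4 to 0.12 (SE 0.10) for Lef1. Leaving out the low-factor libraries gave 0.27 for Cd8b1 (adjusted p = 0.504, edgeR), 0.19 for Cd4 (adjusted p = 0.603, edgeR) and 0.05 for Lef1. The 2 lowest p values belonged to Klf2 on Day 17, at 0.20 (SE 0.09, adjusted p = 0.413, edgeR), and S1pr1 on Day 24, at 0.15 (SE 0.07, adjusted p = 0.227, edgeR).

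The ratio of Cd8a to Cd4 was taken in each library from TPM. On Day 4 its lowest, median and highest values were 0.493, 0.893 and 1.21 in responders and 0.559, 0.940 and 1.12 in non-responders, and it was above 1 in 3 of 15 and 5 of 29 libraries. On Day 9 its lowest and median values were 0.815 and 1.04 in responders and 0.825 and 1.04 in non-responders, and it was above 1 in 9 of 15 and 19 of 30. Both groups thus passed from mostly below 1 to about 1, and they overlapped on both days. The mean log2 ratio was -0.29 ± 0.39 (SD, n = 15), 0.08 ± 0.25 (n = 15), -0.08 ± 0.22 (n = 14) and -0.02 ± 0.25 (n = 15) in responders over the 4 days, and -0.21 ± 0.27 (n = 29), 0.04 ± 0.15, 0.03 ± 0.23 and 0.06 ± 0.16 (each n = 30) in non-responders.

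Responders and non-responders did not pass the test on any day, with differences of -0.08, 0.04, -0.11 and -0.08 and adjusted p = 0.574, 0.645, 0.307 and 0.307 (permutation tests, two-sided, adjusted over the 13 ratio comparisons). From Day 4 to Day 9 the log2 ratio rose by 0.36 ± 0.47 (SD of the changes) in responders, in 11 of 15 mice (adjusted p = 0.0235, exact permutation test), and by 0.26 ± 0.28 in non-responders, in 26 of 29 (adjusted p = 0.000390, permutation test). From Day 4 to Day 17 it rose by 0.23 ± 0.36 in non-responders, in 18 of 29 mice (adjusted p = 0.00685, permutation test), and the responder change of 0.17 ± 0.47 did not pass (adjusted p = 0.307, exact permutation test). From Day 4 to Day 24 it rose by 0.27 ± 0.32 in responders, in 12 of 15 mice (adjusted p = 0.0111, exact permutation test), and by 0.27 ± 0.32 in non-responders, in 23 of 29 (adjusted p = 0.000455, permutation test). The changes of the 2 groups differed by 0.10, -0.06 and -0.01 (adjusted p = 0.546, 0.699 and 0.939, permutation tests).

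The Day 4 ratio moved with library composition. Over the 44 Day 4 libraries its log2 value had a Pearson r of 0.73 with the log2 TMM factor and a Spearman rho of 0.64 (adjusted p = 0.000240 for each, permutation tests over 24 relations). Pearson r was 0.68 without the 2 libraries farthest from the median factor. It was 0.79 within the 3-digit and 0.80 within the 4-digit ear tags, and 0.84 within responders and 0.70 within non-responders. With the haemoglobin share r was -0.58 (rho -0.58, adjusted p = 0.000320 and 0.000600, permutation tests). On Days 9, 17 and 24 r with the TMM factor was -0.18, 0.12 and 0.08 and none passed (adjusted p = 0.619, 0.619 and 0.648, permutation tests). On Day 24, however, r was 0.25 without the 2 farthest libraries, 0.58 within the 3-digit and -0.23 within the 4-digit tags, and 0.55 within responders and -0.22 within non-responders. Low ratios on Day 4 went with haemoglobin-rich libraries. Without the libraries with a factor under 0.7, the rise to Day 9 was 0.19 in 6 responders (adjusted p = 0.542, exact permutation test, and with 6 mice the unadjusted p cannot fall below 0.0312) and 0.22 in 26 non-responders (adjusted p = 0.00260, permutation test). With Cd8b1 in place of Cd8a it was 0.15 and 0.05, and neither passed (adjusted p = 0.414 and 0.414, permutation tests). The rise from Day 4 to Day 24 was 0.17 in 7 responders without the low-factor libraries (adjusted p = 0.102, exact permutation test). With Cd8b1 in place of Cd8a it was 0.03 in responders (adjusted p = 0.779, exact permutation test) and 0.05 in non-responders (adjusted p = 0.414, permutation test). The non-responder change from Day 4 to Day 17, called with Cd8a, was -0.02 with Cd8b1 (10 of 29 mice higher, adjusted p = 0.779, permutation test).

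**Figure D4:**
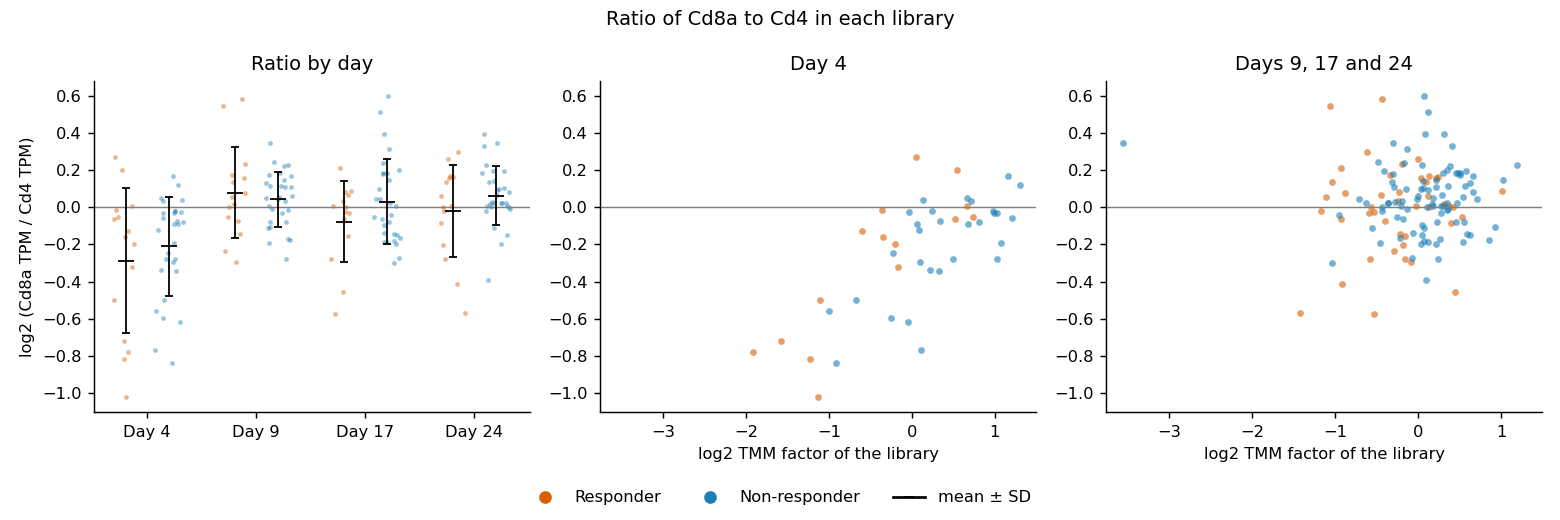
Log2 ratio of Cd8a to Cd4 TPM in each library by day (left; bars give the mean and 1 SD), and against the log2 TMM factor on Day 4 (middle) and on Days 9, 17 and 24 (right), responders in orange and non-responders in blue. On Day 4 libraries with low factors have the lowest ratios (r = 0.73), and r over all libraries is -0.18, 0.12 and 0.08 on the later days.

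The log2 ratio of Cd8b1 to Cd8a TPM was 1.18 ± 0.34 (SD, n = 15) in responders and 1.11 ± 0.31 (n = 29) in non-responders on Day 4, and 0.86 to 0.96 and 0.85 to 0.90 on the later days. On Day 4 it moved with the log2 TMM factor in the other direction, r = -0.63 (rho -0.50, adjusted p = 0.000240 and 0.00368, permutation tests). Cd8a thus stood lower against both Cd4 and Cd8b1 in the haemoglobin-rich Day 4 libraries.

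To compare the genes with T cell signal as such, each was set against the mean log2 CPM of Cd3d, Cd3e and Cd3g, the CD3 chains that T cells carry. That mean fell from 3.61 ± 0.25 (SD, n = 15) on Day 4 to 3.03 ± 0.21 on Day 9 in responders and from 3.62 ± 0.27 (n = 29) to 3.00 ± 0.17 in non-responders. It stood at 3.33 and 3.31 on Days 17 and 24 in responders and at 3.23 and 3.33 in non-responders.

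Against CD3, 4 of the 9 genes were higher on Day 9 than on Day 4 in responders: Klf2 (0.31), Lef1 (0.27), Cd8a (0.21) and Tcf7 (0.15), with adjusted p = 0.00112 to 0.0476 (exact permutation tests adjusted over all 13688 genes). With Cd3e alone as the reference 0 of the 9 were called higher in responders on Day 9 and on Day 24 (background 60.5% and 19.2%), and the Day 9 value of Tcf7 was -0.037. Leaving out the low-factor libraries kept 6 responder mice on Day 9 and 7 on Day 24. In that setting 0 of all 13688 genes were called on either day, so it says nothing of the members' calls, and the Day 9 value of Lef1 was -0.023. In non-responders 6 were higher against the mean of the 3 CD3 genes: Klf2 (0.33), Cd8a (0.22), S1pr1 (0.21), Tcf7 (0.18), Lef1 (0.17) and Ccr7 (0.11). The background was 83.2% of genes higher in responders and 95.5% in non-responders, and the median gene rose by 0.62 and 0.63 against CD3, more than any of the 9. Cd4 and Cd8b1 were not called, with changes against CD3 of -0.12 ± 0.33 and 0.01 ± 0.27 (SD, n = 15) in responders and -0.05 ± 0.20 and 0.01 ± 0.14 (n = 29) in non-responders. On Day 24, 5 of the 9 genes were higher against CD3 than on Day 4 in responders. In non-responders 4 were higher and 1 lower. Il7r was higher by 0.32 in responders (13 of 15 mice, adjusted p = 0.0116, exact permutation test) and by 0.22 in non-responders (20 of 29, adjusted p = 0.00324, permutation test). Of all genes 52.0% and 67.6% were higher, and 76 and 201 of 13688 were lower. The median gene rose by 0.31 and 0.30 against CD3. On Day 17, 1 member was higher and 1 lower in responders, where 4682 and 66 of all genes were. In non-responders 3 were higher on Day 17, where 11439 of all genes were.

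Between the response groups, Lef1 (-0.14, adjusted p = 0.00951) and Tcf7 (-0.09, adjusted p = 0.0193) were lower against CD3 in responders on Day 9 (permutation tests), where 0.942% of genes were. Between the groups no member was called against CD3 on Days 4, 17 or 24. The lower Lef1 was there on Day 4 too, before treatment. Its mean log2 CPM was then 4.14 in responders and 4.38 in non-responders, beside CD3 means of 3.61 and 3.62. The CD3 comparison was not split by ear tag. Without CD3, the Day 9 differences within the 3-digit and 4-digit tags were 0.05 and -0.02 for Lef1. For Tcf7 they were 0.07 and 0.02, and none was called (edgeR). With Cd3e alone as the reference 0 members were called lower on Day 9 (background 0.321%), and without the low-factor libraries 0 of all 13688 genes were called.

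Lists of related genes were counted in the same fits, in which 14.2% of all genes tested fell and 13.5% rose from Day 4 to Day 9 in responders and 27.5% fell and 23.3% rose in non-responders. Of 20 T cell identity genes, 17 fell from Day 4 to Day 9 in responders and 20 in non-responders, with medians of -0.46 and -0.49. Cd2 and Lck in responders (each -0.52) and Cd3e (-0.55) and Thy1 (-0.67) in non-responders had the lowest p values. Of 20 genes of the naive and quiescent state, 12 fell and 2 rose in responders and 14 fell and 2 rose in non-responders, with medians of -0.23 and -0.25. Foxo1, a forkhead factor that maintains Il7r and Klf2, fell by 0.44 and 0.42, and Il6ra and Klf3 were the 2 that rose in each group.

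Around TCF-1 and LEF1, 3 of 11 partners fell and 2 rose in responders and 5 of 12 fell and 3 rose in non-responders. The counts of these short lists stand beside the shares over all genes, and nothing particular to a list is read from them. The co-repressor gene Aes fell by 0.48 and 0.43, and Tle3 rose by 0.24 and 0.16. Of 13 genes of IL-7 receptor signalling 2 fell and 2 rose in responders and 4 fell and 5 rose in non-responders. Il2rg, the chain that pairs with IL-7R, fell by 0.40 and 0.39, and Socs3, a feedback inhibitor of cytokine signalling, rose by 0.62 and 0.99. Of 12 genes of sphingosine-1-phosphate signalling 1 fell and 4 rose in responders and 4 fell and 4 rose in non-responders. The receptor gene S1pr4 fell by 0.34 and 0.37, whereas S1pr2 rose by 0.46 and 0.68. Of 9 homing genes 4 fell and 2 rose in responders and 3 fell and 3 rose in non-responders, with Cxcr5 down by 0.53 and 0.49 and Cxcr4 up by 0.48 and 0.35.

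Of 13 CD4 lineage genes 4 fell and 1 rose in responders and 7 fell and 2 rose in non-responders on Day 9. Of 13 CD8 lineage genes 3 fell in responders and 4 fell and 1 rose in non-responders on Day 9, with medians of -0.07 and -0.14. By Day 24, when Cd8a stood at -0.13 (SE 0.07) in responders and -0.12 (SE 0.05) in non-responders, 9 of these 13 were below Day 4 in responders and 9 in non-responders, with medians of -0.42 and -0.34, where 9.94% and 24.8% of all genes tested were lower. On that day all 6 NK cell markers were below Day 4 in both groups, with medians of -0.67 and -0.65, and their part in the CD8 list was not tested.

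Markers of other blood cells moved over the same interval as the 9 genes. From Day 4 to Day 9 the median summed level of 6 monocyte genes went from 154 to 235 CPM in responders and from 125 to 242 CPM in non-responders, and that of 6 neutrophil genes from 237 to 391 and from 195 to 347 CPM. The 6 B cell genes went from 461 to 354 and from 486 to 380 CPM. In non-responders all 6 monocyte markers rose, with a median of 1.09, 5 of 6 neutrophil markers rose and all 6 B cell markers fell. In responders 4 monocyte and 3 neutrophil markers rose and 4 B cell markers fell, where 13.5% of all genes tested rose and 14.2% fell (23.3% and 27.5% in non-responders). The part of the myeloid rise in the fall of the 9 genes was not tested.

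Within a day and response group the 9 genes did not all vary together. Over the deviations of 178 libraries from their group means Pearson r was highest between Tcf7 and Lef1 (0.78), Cd4 and Cd8b1 (0.75), Cd4 and Tcf7 (0.68), Cd8b1 and Tcf7 (0.67) and Cd8a and Tcf7 (0.66). Cd8a and Cd8b1 reached 0.64 and Cd4 and Cd8a 0.47. Klf2 stood apart, with 0.03 to Il7r, 0.07 to Cd8a and 0.10 to Lef1, and its highest value was 0.51, to Ccr7. These are descriptions: the libraries share scaling, depth and, 4 to a mouse at most, their animals.

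Outside the 9 genes, those most like each of them among 13679 searched were mostly T cell genes. Thy1 was nearest to Cd4 (r = 0.82) and to Cd8b1 (0.88), Cd3e to Cd8a (0.74), Trac to Tcf7 (0.81), Satb1 to Lef1 (0.80), Cd28 to Il7r (0.68) and Gimap6 to S1pr1 (0.74). Ccr7 was nearest to Il16 (0.72), followed by the MHC class II genes H2-Eb1 (0.70) and H2-Aa (0.69), which B cells carry. Without the Day 24 library of mouse 29 its nearest gene was Skap1 (0.69), and the class II genes were not among its 3 nearest. Klf2 was nearest to Hnrnpa0 (0.78), Taf10 (0.72) and Hnrnpab (0.72), genes of RNA processing and transcription that are not restricted to T cells.

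**Figure D5:**
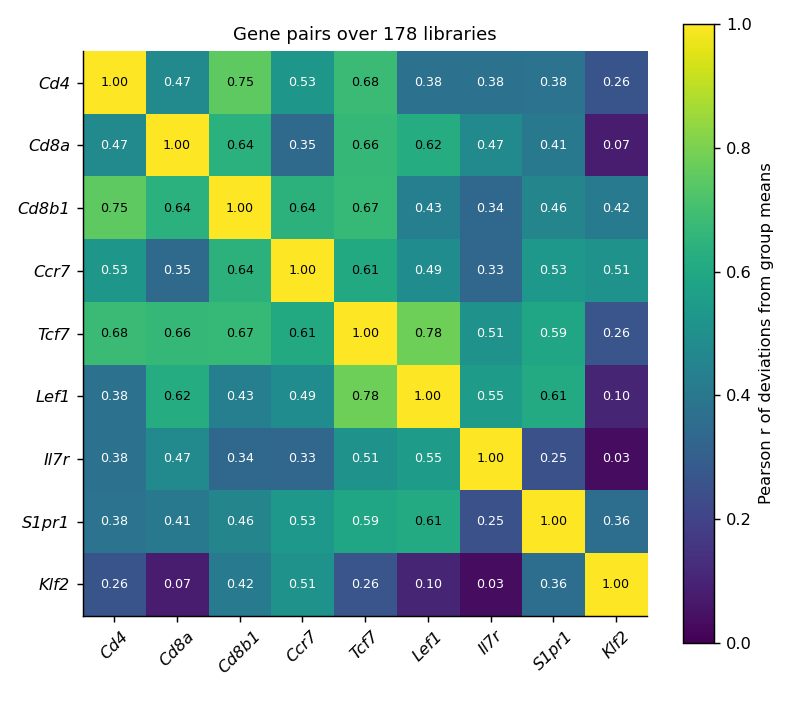
Pearson r between each pair of the 9 genes over 178 libraries, taken on deviations of TMM-scaled log2 CPM from the mean of each day and response group; the scale runs from 0 to 1. Tcf7 with Lef1 (0.78) and Cd4 with Cd8b1 (0.75) are the brightest pairs, and the Klf2 row is the darkest.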

How the data were processed

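Whole-blood RNA was sequenced in 178 libraries from 45 mice. The submitters' processing notes name the aligner STAR and the build mm10; the counter and annotation are not given in the sources used here. The deposited tables, made by the authors, hold estimated counts per gene and TPM. Of the nonzero gene-by-library counts 10.335% were not whole, and counts were rounded here. The counts of the 9 genes are whole. The authors scaled TPM for transcript length and library total.

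Groups came from the labels. Counts were scaled by TMM and tested in edgeR 4.0.16 (quasi-likelihood, filterByExpr, Benjamini-Hochberg adjustment over all genes, called at an adjusted p of at most 0.05), with limma 3.58.1 and DESeq2 1.42.0 as alternatives (R 4.3.3). Displayed log2 CPM carry a prior count of 2, limma used log2(TPM + 1), and the CD3 comparison on TPM a pseudocount of 0.1. Ratio, rank and CD3 tests were two-sided permutation tests (exact where enumerable, otherwise 100000 resamples; Python 3.11.15, numpy 2.4.6, scipy 1.17.1). The CD3 values were adjusted over all genes. Scripts were tested on simulated data.

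All 9 members are named, with up to 3 genes most correlated to each and, from each list, up to 2 called genes with the lowest p per direction. The members and lists were chosen with earlier results of these data known. Leaving out the 30 libraries with a TMM factor under 0.7 was added after seeing the data.

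Libraries of 1 mouse share its ear tag, so mice were used as replicate blocks in an alternative. The median correlation of deviations between days of the same mouse ran from -0.0808 to 0.101.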

Additional observations from a re-analysis of the deposited data

How the results depend on the processing

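With mice as replicate blocks, 7 members were called on Day 17 against Day 4, 3 on Day 24 against Day 4 and 4 on Day 17 against Day 9 in responders (5, 2 and 2 without the block; 13.8% and 10.9% of all genes lower and 2.21% higher with it), and no other call changed. For the count of called members, the rank-sum test on TPM gave 9 on Day 4 and 9 on Day 9 between the response groups. limma on log2(TPM + 1) gave 0 for each of the 5 responder time comparisons and for non-responders on Day 17 against Day 9 and on Day 24 against Day 17, where 0.00797% to 0.292% of all genes were called in the members' direction. A fold of at least 1.5 left 1 from Day 4 to Day 9 in responders, 2 in non-responders and 0 in the other 8 time comparisons (1.6%, 1.61% and 0.39% to 2.08% of all genes). Without low-factor libraries, responders had 0 on Day 24 against Day 4 and 0 on Day 17 against Day 9. Leaving out 1 mouse gave 0 to 1 between the groups on Day 4, 1 to 3 from Day 9 to Day 17 in responders and 3 to 6 in non-responders.

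Directions reversed on TPM. The rank-sum scale gave -0.83 for Cd4 and -0.96 for Cd8b1 on Day 4, and -0.63 for Cd4, -0.72 for Cd8b1 and -0.66 for Klf2 on Day 9. Of the values not called on either scale, 5 changed sign on Day 17, among them Klf2 (-0.13), Cd4 (-0.16) and Cd8b1 (-0.21), and 3 on Day 24, Cd8a (0.13), Klf2 (-0.16) and Cd4 (-0.07). limma gave -0.089 for Cd4, -0.095 for Cd8a, -0.14 for Cd8b1, -0.19 for Ccr7 and -0.22 for Klf2 in non-responders from Day 9 to Day 17. Against CD3 from Day 4 to Day 9 in responders, Tcf7 was -0.037 with Cd3e alone and Lef1 -0.023 without low-factor libraries. The count of members called against CD3 was 0 with Cd3e alone, and 0 without low-factor libraries, between the groups on Day 9 and in responders on Days 9, 17 and 24 against Day 4; without low-factor libraries 6, 3 and 7 responder mice were left and the exact p cannot fall below 0.0312, 0.25 and 0.0156, and 0 of all 13688 genes were called in each of these comparisons, so these values say nothing of stability. In non-responders on Day 24 the count was 3 on TPM and 3 without low-factor libraries (86.3% and 61% of all genes).

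The log2 ratio of Cd8a to Cd4 reversed between the groups without low-factor libraries on Day 4 (0.12) and Day 9 (-0.0062), and on Day 9 with counts (-0.0084) and in the 3-digit tags (-0.12). The Day 17 change was -0.11 with Cd8b1 and -0.024 without low-factor libraries in responders, and -0.018 with Cd8b1 in non-responders. The difference of changes was -0.030 without low-factor libraries on Day 9, 0.12 in the 3-digit tags on Day 17 and 0.092 in the 4-digit tags on Day 24. Calls were lost in responders on Day 9 with Cd8b1 (0.15), in the 3-digit (0.37) and 4-digit tags (0.36) and without low-factor libraries (0.19), and on Day 24 likewise (0.030, 0.29, 0.26 and 0.17). With 4 responder mice in the 3-digit tags the exact two-sided p cannot fall below 0.125, so the losses there say nothing of stability. In non-responders they were lost with Cd8b1 on Days 9 and 24 (0.048 and 0.055) and in the 4-digit tags on Days 9, 17 and 24 (0.19, 0.10 and 0.17), where 7 mice allow no exact p below 0.0156, which adjusted beside the other p values there cannot pass. The causes were not tested. Counting error is largest where counts are low, and Cd8b1 had 33 counts in 1 non-responder library on Day 24.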

Other observations

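The log2 ratio of Cd8a to Cd4 in a mouse was compared between days. Over the 6 pairs of days Pearson r ran from -0.10 (Days 4 and 17, 43 mice) to 0.29 (Days 4 and 24, 44 mice), and none passed after adjustment over the 6 pairs (lowest adjusted p = 0.159, permutation tests). Spearman's rho for Days 4 and 24 was 0.27 (adjusted p = 0.466, permutation test), and r was 0.38 within the 3-digit and 0.13 within the 4-digit ear tags, and 0.18 without the 2 mice farthest from the median.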
